A study of Rattus norvegicus with 23 samples.

Results

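The CNTF family receptors and their STAT3 response were followed in rat oligodendroglial cells as a set of 7 genes: the receptor chains Cntfr, Lifr, Il6st and Osmr, the transcription factor Stat3, and the response genes Socs3 and Bcl3. Members were chosen by gene name in the authors' tables and followed by identifier in the count files. Of the 7 names, 6 matched 1 identifier each, out of 32552 genes listed in the differentiating CG4 files; Osmr was not analysed here. Socs3 was analysed in the differentiating CG4 libraries only, so 5 members were followed in all 6 groups. The identifiers are ENSRNOG00000047307 for Cntfr, ENSRNOG00000011696 for Lifr, ENSRNOG00000013963 for Il6st, ENSRNOG00000019742 for Stat3, ENSRNOG00000002946 for Socs3 and ENSRNOG00000043416 for Bcl3.

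The 23 RNA-seq libraries form 6 groups. CG4 is an immortalized line that was derived from oligodendroglia of the rat brain. CG4 cells with the vector pCAG-myc-Zfp488-IRES-EGFP (Zfp488 cells), with pCAG-T7-Nkx2.2-IRES-EGFP (called Nkx2.2 cells here) or with pCAG-IRES-EGFP, which gives GFP only (control cells), were each sequenced after 3 days of differentiation (n = 4 each). The control cells were compared in turn with wild-type CG4 cells kept proliferating (n = 3). Primary rat oligodendroglia, shaken off mixed glial cultures, were sequenced after 3 days of differentiation (n = 4) and while proliferating (n = 4). The differentiation medium was SATO with high T3/T4 and with CNTF itself, so every differentiating group had received the ligand of these receptors along with thyroid hormone. The proliferating groups had basal medium with bFGF and PDGF-AA. Medium, hormone and ligand changed together, and between the CG4 groups so did the vector and the read length (100 bases in the proliferating CG4 libraries, 150 in the others), so their parts in a difference cannot be told apart.

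Ciliary neurotrophic factor (CNTF) binds CNTFR, a receptor chain tethered to the membrane that has no signalling domain of its own. It then recruits LIFR and IL6ST, also called gp130, whose bound JAK kinases phosphorylate STAT3. Phosphorylated STAT3 enters the nucleus and switches on genes that include Socs3, whose protein blocks gp130 and JAK in a negative feedback loop. In glia the pathway is known for promoting oligodendrocyte survival and maturation and for inducing Gfap in astrocytes. The counts measure RNA, not phosphorylation.

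Libraries held 20063345 to 49206479 counted reads. Levels are given as CPM, counts scaled to the size of the library with TMM factors, over 15219 genes listed in every file. The vectors left their mark: Zfp488 RNA was at 130 to 200 CPM in Zfp488 cells against 33.7 to 59 CPM in control cells, and Nkx2-2 RNA at 1280 to 1990 CPM in Nkx2.2 cells against 211 to 299 CPM in control cells. Nkx2-2 RNA was also lower in Zfp488 cells, at 91.5 to 175 CPM, by a log2 change of -0.94 ± 0.20 against control (adjusted p = 0.014, edgeR). Summed over 9 oligodendrocyte lineage markers, primary cells had 87000 to 98600 CPM when differentiating and 4450 to 4770 CPM when proliferating. The same sum was 18100 to 30900 CPM in Zfp488 cells, 7760 to 17600 CPM in Nkx2.2 cells, 11600 to 18000 CPM in differentiating control cells and 5050 to 7090 CPM in proliferating CG4 cells. Some libraries stood apart within their group. The primary differentiating libraries formed 2 close pairs, with a chi-square per degree of freedom of 8.16 and 1.74 within the pairs and 28.1 to 35.5 between them, so they may hold fewer than 4 independent cultures. Among the proliferating CG4 libraries the same measure was 146 to 254, against 2.11 to 4.33 in proliferating primary cells.

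No member passed the unblocked test against control with added Zfp488 or Nkx2.2. Against control cells, 0 of the 6 members passed an adjusted p of 0.05 with Zfp488 (edgeR's quasi-likelihood test), where 9.04% of all genes tested passed, and 0 of 6 passed with Nkx2.2, where 10.6% of all genes did. At an unadjusted p under 0.05, 1 member, Cntfr, was below the threshold with Zfp488, as were 24.8% of all genes, and 0 were with Nkx2.2, against 25.6% of all genes. DESeq2 called 0 of 6 in both comparisons, against 14.8% of all genes with Zfp488 and 15.7% with Nkx2.2. Other settings did call members. With Zfp488, an unblocked fit of the Zfp488 and control groups alone called Cntfr, as did the authors' deposited table. Library numbers pair the differentiating CG4 libraries, and with the number as a block 1 of 6 members passed with Zfp488, Cntfr (24.1% of all genes), 1 of 6 with Nkx2.2, Stat3 (26.2% of all genes), and 3 of 6 between the factors (42.4% of all genes). Between the factors, Zfp488 cells against Nkx2.2 cells, 1 of 6 members passed, again Cntfr, where 25.3% of all genes did.

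Cntfr, the ligand-binding chain, was at 34.3, 38.2, 40.9 and 31.1 CPM in the 4 Zfp488 libraries, at 40.7, 60.2, 91.1 and 49.0 CPM in the Nkx2.2 libraries and at 47.2, 49.4, 60.5 and 53.6 CPM in the control libraries. Every Zfp488 library lay below every control library, while the Nkx2.2 libraries spread across the control range and beyond it. The log2 change with Zfp488 was -0.53 ± 0.20 (SE, adjusted p = 0.122, edgeR). With the library number as a block the change was -0.54 and passed (adjusted p = 0.0144, edgeR); a fit of the Zfp488 and control groups alone also called it (adjusted p = 0.0212, edgeR). In the authors' deposited table the same change stands at -0.53 with an adjusted p of 0.000562. Cntfr was lower in Zfp488 cells than in Nkx2.2 cells by a log2 change of -0.74 ± 0.20 (adjusted p = 0.0193, edgeR), in 4 of 4 numbered pairs. Without Zfp488 library 4 that difference no longer passed (adjusted p = 0.0597, edgeR).

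The signalling chains did not pass with either factor. Lifr, which joins gp130 in the receptor complex, was at 13.7, 13.4, 20.6 and 20.2 CPM in Zfp488 cells, at 22.7, 19.3, 12.8 and 19.2 CPM in Nkx2.2 cells and at 18.8, 20.1, 26.0 and 13.4 CPM in control cells. Its log2 change was -0.20 ± 0.22 with Zfp488 and -0.07 ± 0.22 with Nkx2.2. Il6st, the gp130 chain shared by the whole cytokine family, was at 124, 95.2, 71.2 and 109 CPM in Zfp488 cells, at 147, 121, 54.0 and 115 CPM in Nkx2.2 cells and at 136, 99.2, 68.0 and 71.1 CPM in control cells. All 3 groups overlapped for Lifr and for Il6st, and the Il6st changes were 0.10 ± 0.29 with Zfp488 and 0.23 ± 0.29 with Nkx2.2.

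Stat3, the transcription factor that carries the signal to the nucleus, was at 433, 372, 268 and 314 CPM in Zfp488 cells, at 519, 478, 269.6 and 433 CPM in Nkx2.2 cells and at 434, 394, 231 and 285 CPM in control cells. The groups overlapped, yet each Nkx2.2 library was above the control library of the same number, in 4 of 4 pairs. The log2 change with Nkx2.2 was 0.35 ± 0.24 (adjusted p = 0.383, edgeR), and with library number as a block it passed (adjusted p = 0.00918, edgeR). With Zfp488 it was 0.06 ± 0.24 (adjusted p = 0.914, edgeR). Blocked by number, Stat3 was also lower in Zfp488 cells than in Nkx2.2 cells, by a log2 change of -0.28 (adjusted p = 0.0195, edgeR), which the unblocked test did not call (-0.29 ± 0.24, adjusted p = 0.381, edgeR).

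Among the response genes, Socs3 was at 29.9, 44.5, 13.7 and 29.0 CPM in Zfp488 cells, at 42.1, 37.3, 11.5 and 24.0 CPM in Nkx2.2 cells and at 34.3, 28.5, 10.8 and 16.0 CPM in control cells. The spread inside each group, with a highest over lowest library of 3.26 in Zfp488 cells, 3.65 in Nkx2.2 cells and 3.19 in control cells, was wide beside the differences between group means. Each Nkx2.2 library was above the control library of the same number in 4 of 4 pairs, and 3 of 4 Zfp488 libraries were. Its log2 changes of 0.40 ± 0.45 with Zfp488 and 0.37 ± 0.45 with Nkx2.2 did not pass (adjusted p = 0.637 and 0.651, edgeR), nor with library number as a block (adjusted p = 0.052 and 0.098, edgeR). Bcl3, an atypical member of the IkappaB family that binds the NF-kappaB subunits p50 and p52, was at 72.3, 110.4, 62.9 and 80.4 CPM in Zfp488 cells, at 66.4, 85.6, 33.5 and 57.6 CPM in Nkx2.2 cells and at 88.1, 83.6, 36.4 and 61.0 CPM in control cells. Its changes against control were 0.29 ± 0.30 with Zfp488 and -0.13 ± 0.30 with Nkx2.2, neither of which passed (adjusted p = 0.609 and 0.825, edgeR). Zfp488 cells had more Bcl3 than Nkx2.2 cells in 4 of 4 numbered pairs, with a log2 change of 0.42 ± 0.30 that passed only with the number as a block (0.48, adjusted p = 0.0156, edgeR).

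**Figure D1:**
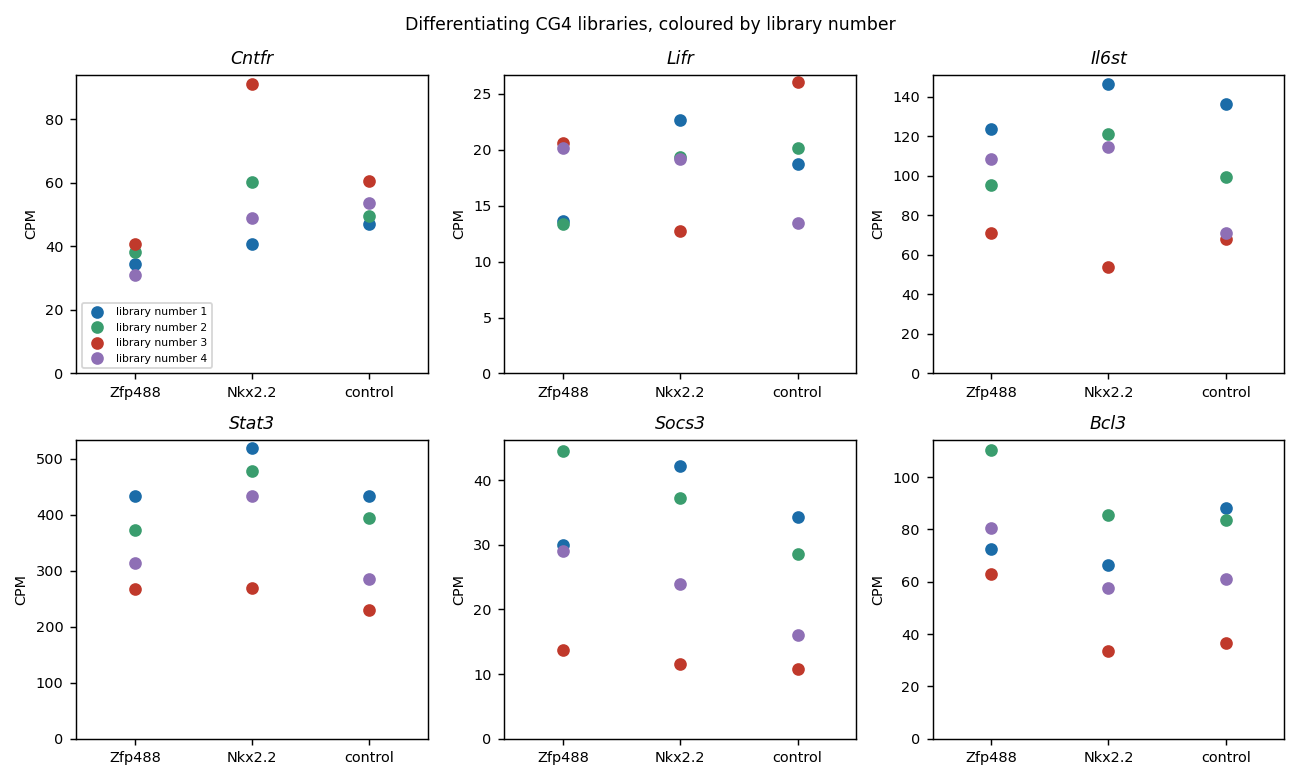
CPM (y axis, from 0) of the 6 matched members in each differentiating CG4 library of the Zfp488, Nkx2.2 and control groups (x axis); a point is 1 library and its colour the library number. Library 3 is the lowest point of all 3 groups for Il6st, Stat3, Socs3 and Bcl3 and the highest for Cntfr.

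Several members followed the library number. Library 3 was the lowest of its group in all 3 differentiating CG4 groups for Il6st, Stat3, Socs3 and Bcl3, and the highest in all 3 for Cntfr. Of the 24 STAT3-linked response genes with a name, 10 were lowest in library 3 of all 3 groups, among them Gfap, the intermediate filament of astrocytes, Icam1, an adhesion molecule, Timp1, an inhibitor of metalloproteinases, and the transcriptional regulators Sbno2 and Klf6. Of all 14811 genes tested in these libraries, 10.7% were lowest in library 3 of all 3 groups and 14.3% highest. Gfap was at 378 CPM in library 3 of the Zfp488 cells, at 193 CPM in that of the Nkx2.2 cells and at 235 CPM in that of the control cells, against 741 to 2278 CPM in the other 9 libraries. What the number stands for beyond a replicate is not stated, and its part in these levels was not tested beyond the blocked fits. With the 3 libraries numbered 3 left out together, an alternative chosen after seeing the data, 0 members passed against control with Zfp488 (Cntfr, adjusted p = 0.0504, edgeR) and 0 with Nkx2.2, and Cntfr still passed between the factors (adjusted p = 0.0161, edgeR).

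Of the 5 members tested in control differentiating against proliferating CG4 cells, 2 rose, Cntfr and Bcl3, and 1 fell, Il6st, where 65.8% of all genes tested passed. A share of 3 in 5 is near that background. The median log2 change of the members was 0.60, against 0.01 for all genes tested.

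Cntfr was at 47.2 to 60.5 CPM in the differentiating control libraries, against 29.0, 13.3 and 28.4 CPM in the proliferating CG4 libraries. The groups did not overlap, and Cntfr rose by a log2 change of 1.19 ± 0.26 (adjusted p = 0.0043, edgeR). Lifr was at 13.4 to 26.0 CPM when differentiating and at 37.8, 19.6 and 22.4 CPM when proliferating, with a change of -0.41 ± 0.29 that did not pass (adjusted p = 0.233, edgeR). Il6st went the other way from its ligand-binding partner. It was at 68.0 to 136 CPM in differentiating control cells, against 184, 140.3 and 178 CPM in proliferating CG4 cells, and it fell by 0.81 ± 0.25 on the log2 scale (adjusted p = 0.0208, edgeR). That call was lost without control library 4 (adjusted p = 0.0511, edgeR), without proliferating library 1 (adjusted p = 0.0549, edgeR) or without proliferating library 3 (adjusted p = 0.0573, edgeR).

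Stat3 was at 231 to 434 CPM in differentiating control cells and at 152, 332 and 196 CPM in proliferating CG4 cells. The ranges overlapped and the change of 0.60 ± 0.32 did not pass (adjusted p = 0.128, edgeR). One library decided this: without proliferating library 2, the one at 332 CPM, the change was 0.98 and passed (adjusted p = 0.0156, edgeR).

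Bcl3 had the largest change of the 5. Differentiating control cells had 88.1, 83.6, 36.4 and 61.0 CPM, against 1.15, 0.125 and 0.146 CPM in proliferating CG4 cells, which rest on counts of 48, 4 and 6 reads. The means, 67.3 ± 23.7 CPM (SD, n = 4) and 0.475 ± 0.589 CPM (SD, n = 3), differ 142-fold. The log2 change was 7.12 ± 0.78 (adjusted p = 9.98e-05, edgeR), and without proliferating library 1, which holds most of the reads, it was 8.94. The astrocyte markers moved alongside: the summed level of the 6 of 7 listed, Gfap among them, was 2310 to 3690 CPM in differentiating control cells and 164 to 312 CPM in proliferating CG4 cells, where 1 of them, Aldh1l1, was at 0 in all 3 libraries. Their part in the Bcl3 change was not tested. In bulk RNA a change in the number of cells of a type and a change in RNA per cell cannot be told apart.

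The letters before the Bcl3 start are shown because of this range. RefSeq (build GRCr8, an assembly other than the rn6 of the counts) places the window of 250 bases before the start of rat Bcl3 at chr1:88613556-88613805 on the minus strand. It is given 5′ to 3′ beside that of Icam1 at chr8:27829595-27829844 on the plus strand, a STAT3-linked gene of the same direction in CG4 cells.
Bcl3: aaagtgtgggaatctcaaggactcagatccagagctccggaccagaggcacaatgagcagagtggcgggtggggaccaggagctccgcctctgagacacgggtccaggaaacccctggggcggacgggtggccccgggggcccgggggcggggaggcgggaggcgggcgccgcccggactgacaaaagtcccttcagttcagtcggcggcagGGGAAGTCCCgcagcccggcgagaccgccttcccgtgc
Icam1: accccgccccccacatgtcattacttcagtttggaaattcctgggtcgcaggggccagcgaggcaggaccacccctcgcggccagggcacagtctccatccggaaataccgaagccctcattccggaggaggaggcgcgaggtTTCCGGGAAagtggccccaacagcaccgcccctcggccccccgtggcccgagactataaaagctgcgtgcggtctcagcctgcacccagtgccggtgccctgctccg
Capitals mark, in Bcl3, a match to the kappaB consensus at bases 38 to 29 before the start and, in Icam1, a match to the STAT spelling TTCNNNGAA at bases 107 to 99 before the start. Both strands were searched for both motifs, and neither window holds a match to both spellings. The kappaB spelling had to begin with GGG, so variants of such a site that begin otherwise were not searched for. The STAT spelling lies in 7.67% of 33469 such windows and in 0 of the 6 members with a window (all but Cntfr). The kappaB consensus lies in 6.33% of all windows and in 2 of the 6, Bcl3 and Socs3. Icam1 does not stand for its list: of the other STAT3-linked genes with a window that rose in CG4 cells, Tnfrsf12a has 1 STAT match. Cebpb, Gadd45g, Gfap, Hif1a, Il4r, Pim3, Sbno2, Timp1, Vegfa and Zfp36 have 0. A match is a description of letters and not a site of binding, and its absence says only that the spelling is not in the window.

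Primary cells changed all 5 members on differentiation. Lifr and Il6st rose and Cntfr, Stat3 and Bcl3 fell, where 84.8% of all genes tested passed, so a count of 5 in 5 says little about the set. The median log2 change of the members was -0.53, against -0.02 for all genes tested. The groups did not overlap for 5 of 5 members, nor did they for 81.3% of all genes tested.

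Lifr was at 18.8, 22.2, 23.2 and 22.6 CPM in differentiating primary cells, against 5.14, 5.69, 4.70 and 6.17 CPM in proliferating ones. It rose 3.99-fold by the means, a log2 change of 2.03 ± 0.10 (adjusted p = 6.35e-09, edgeR). Il6st, at 146, 162, 125 and 124 CPM when differentiating and 62.2, 67.0, 62.5 and 66.3 CPM when proliferating, rose by 1.15 ± 0.08 (adjusted p = 8.22e-08, edgeR). Both signalling chains of the receptor were therefore higher after differentiation, while the ligand-binding chain was lower. Cntfr was at 16.7, 13.6, 17.2 and 19.5 CPM in differentiating primary cells, against 26.8, 23.9, 25.8 and 28.3 CPM in proliferating ones, and fell by 0.61 ± 0.10 on the log2 scale (adjusted p = 0.000187, edgeR).

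Stat3 was at 249.8, 245, 153 and 149 CPM in differentiating primary cells, against 298, 283.5, 302 and 303 CPM in proliferating ones. It fell by 0.53 ± 0.15 on the log2 scale (adjusted p = 0.00736, edgeR), and the differentiating libraries split into the same 2 close pairs as they did over all genes. In a fit of all 23 libraries together the Stat3 change was at the threshold (adjusted p = 0.05, edgeR). Bcl3 was low in both primary groups, at 1.70, 1.62, 1.16 and 1.23 CPM when differentiating (24 to 49 reads) and at 3.66, 4.33, 4.04 and 4.86 CPM when proliferating (92 to 181 reads). It fell by 1.504 ± 0.15 on the log2 scale (adjusted p = 2.67e-06, edgeR). Markers of other cell types moved in primary cells as well. For microglia, the 3 of 8 listed, Csf1r, P2ry12 and Cd68, summed to 18.8 to 24.9 CPM in differentiating primary cells and 451 to 469 CPM in proliferating ones, and 3 of 3 fell. For fibroblasts, pericytes and endothelium, the 2 of 8 listed, Col1a1 and Col3a1, summed to 5.54 to 10.6 CPM when differentiating and 57 to 78.9 CPM when proliferating, and both fell. The 6 neuronal markers summed to 182 to 192 CPM in differentiating and 303 to 316 CPM in proliferating primary cells, and of the 5 tested 4 fell and 1 rose. None of these markers was at 0 in every library of either group. Their part in the fall of Bcl3, and in those of the ligand, receptor, inhibitor and response genes given further on, was not tested.

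**Figure D2:**
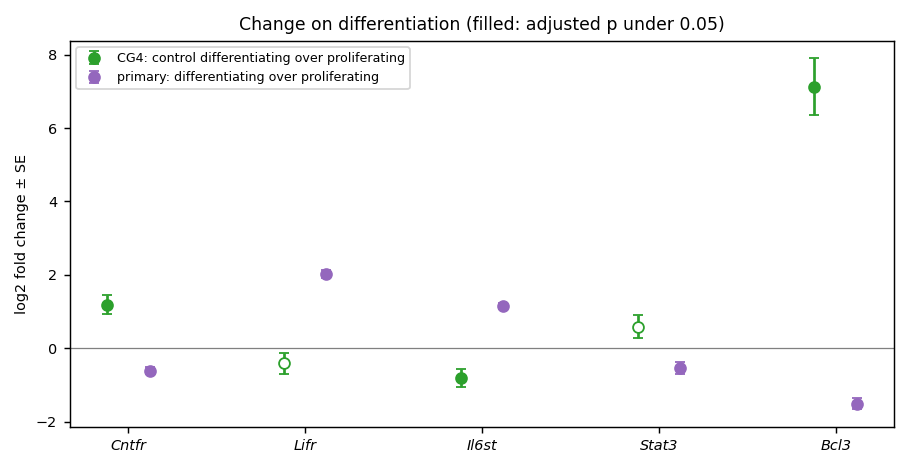
Log2 fold change with its standard error (y axis) of the 5 members analysed in all groups, for control differentiating over proliferating CG4 cells (green) and differentiating over proliferating primary cells (purple); filled points passed an adjusted p of 0.05 and open points did not. Cntfr and Bcl3 are above 0 in CG4 cells and below 0 in primary cells, while Il6st is below 0 in CG4 cells and above 0 in primary cells.

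The responses to differentiation differed between the cell line and primary cells for all 5 members, in a test of the difference itself, where 69.3% of all genes tested passed. The CG4 response minus the primary response was 1.83 ± 0.29 for Cntfr (adjusted p = 4.54e-05, edgeR) and 8.66 ± 0.70 for Bcl3 (adjusted p = 5.5e-08, edgeR). It was 1.17 ± 0.37 for Stat3 (adjusted p = 0.0112, edgeR). For the signalling chains it had the opposite sign, -2.41 ± 0.31 for Lifr (adjusted p = 7.49e-06, edgeR) and -1.92 ± 0.27 for Il6st (adjusted p = 1.71e-05, edgeR). Cntfr, Il6st and Bcl3 thus moved in opposite directions in CG4 and primary cells, each past the threshold in both. Without proliferating CG4 library 1 the Bcl3 difference was 10.48. The cell line and the primary cells also differ in origin and handling, and in CG4 cells in vector and read length between the media, which cannot be told apart from the response to medium.

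Set side by side in differentiation medium, 4 of the 5 members differed between control CG4 cells and primary cells, where 73% of all genes tested passed. CG4 cells had more Cntfr (52.7 ± 5.9 CPM against 16.7 ± 2.4 CPM in primary cells, SD, n = 4 each), a log2 difference of 1.66 ± 0.20 (adjusted p = 2.38e-06, edgeR). Bcl3 differed most, 67.3 ± 23.7 CPM in CG4 cells against 1.42 ± 0.27 CPM in primary cells (SD, n = 4 each), a log2 difference of 5.55 ± 0.46 (adjusted p = 6.15e-08, edgeR). Stat3 was higher in CG4 cells by 0.76 ± 0.25 and Il6st lower, with -0.56 ± 0.18 (adjusted p = 0.0131 for each, edgeR), although both groups overlapped for both genes. The Stat3 call was lost when each close pair of primary libraries was summed into 1 (adjusted p = 0.0558, edgeR). Lifr did not pass, with a difference of -0.14 ± 0.21 (adjusted p = 0.571, edgeR).

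In proliferation medium 3 of 5 members differed between CG4 and primary cells, where 71.2% of all genes tested passed. Proliferating CG4 cells had more Lifr, 26.6 ± 9.8 CPM (SD, n = 3) against 5.43 ± 0.64 CPM in primary cells (SD, n = 4), a log2 difference of 2.27 ± 0.23 (adjusted p = 5.77e-07, edgeR). Il6st was higher too, by 1.36 ± 0.20 (adjusted p = 2.16e-05, edgeR), and Bcl3 lower, with -3.11 ± 0.52 (adjusted p = 8.93e-05, edgeR). Without proliferating CG4 library 1 the Bcl3 difference was -4.91. Cntfr and Stat3 did not pass (adjusted p = 0.47 and 0.192, edgeR), but Stat3 did without proliferating CG4 library 2 (-0.77, adjusted p = 0.016, edgeR).

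**Figure D3:**
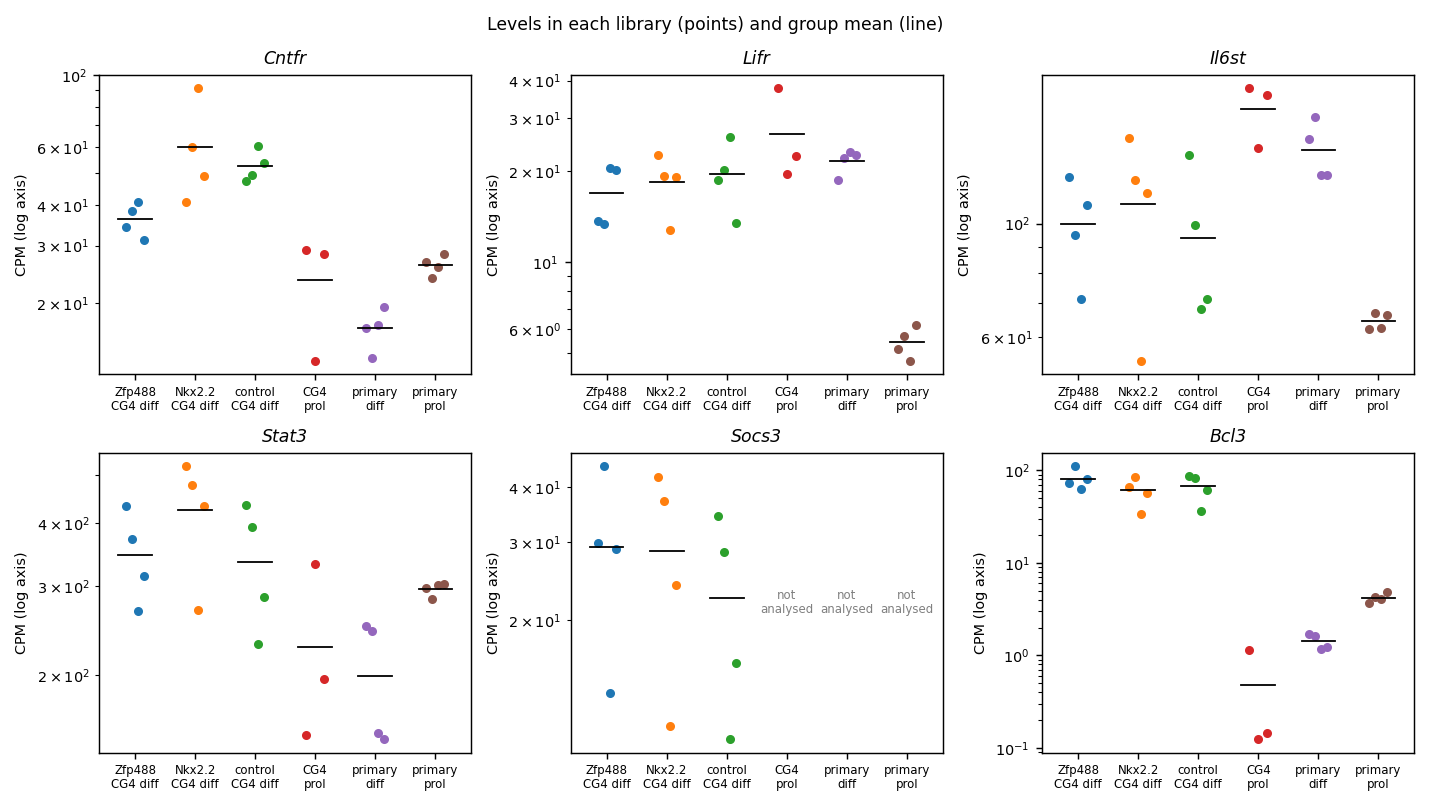
CPM on a log axis (y) of each matched member in every library (points) with the group mean (line), by group (x axis; diff, differentiating; prol, proliferating). Bcl3 is at 33.5 CPM or above in the 12 differentiating CG4 libraries and at 4.86 CPM or below in the others; Lifr is below 6.2 CPM in proliferating primary cells alone.

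Ordered by group mean, Cntfr was highest in Nkx2.2 cells (60.2 ± 22.0 CPM), then control (52.7 ± 5.9), Zfp488 (36.1 ± 4.3), proliferating primary (26.2 ± 1.8), proliferating CG4 (23.6 ± 8.9) and differentiating primary cells (16.7 ± 2.4 CPM; SD, n = 3 for proliferating CG4 and 4 elsewhere). Of the neighbours in that order, control and Zfp488 did not overlap, nor did Zfp488 and proliferating primary cells; the others did. Lifr ran from 26.6 ± 9.8 CPM in proliferating CG4 cells through overlapping values of 21.7 ± 2.0 CPM in differentiating primary, 19.6 ± 5.2 CPM in control, 18.5 ± 4.1 CPM in Nkx2.2 and 16.9 ± 4.0 CPM in Zfp488 cells. Only proliferating primary cells, at 5.43 ± 0.64 CPM, lay clear of all the others for Lifr. They also had the lowest mean of Il6st, 64.5 ± 2.5 CPM, whose highest means were 167.5 ± 23.7 CPM in proliferating CG4 and 139 ± 18 CPM in differentiating primary cells, with 109 ± 39 CPM in Nkx2.2, 99.6 ± 22.2 CPM in Zfp488 and 93.7 ± 31.7 CPM in control cells between.

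Stat3 was least ordered, with means of 425 ± 109 CPM in Nkx2.2, 347 ± 71 CPM in Zfp488, 336 ± 94 CPM in control, 297 ± 9 CPM in proliferating primary, 227 ± 94 CPM in proliferating CG4 and 199 ± 56 CPM in differentiating primary cells. Each group overlapped its neighbour in this order. Bcl3 was highest in the differentiating CG4 groups: 81.5 ± 20.5 CPM in Zfp488, 67.3 ± 23.7 CPM in control and 60.8 ± 21.6 CPM in Nkx2.2 cells, which overlapped. Then came 4.22 ± 0.50 CPM in proliferating primary, 1.42 ± 0.27 CPM in differentiating primary and 0.475 ± 0.589 CPM in proliferating CG4 cells, which did not overlap. Differentiating primary and proliferating CG4 cells nearly touched, however. The lowest differentiating primary library had 1.1598 CPM (24 reads) and the highest proliferating CG4 library 1.1545 CPM (48 reads). The difference between these groups was not tested.

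The ligands of the family were measured as the cells' own RNA, which the CNTF added to the medium does not enter. Of the 6 followed, 0 passed with Zfp488 against control and 1, Lif, with Nkx2.2, where 9.04% and 10.6% of all genes tested passed. Lif, which signals through LIFR and gp130 without CNTFR, was at 0.0327 to 0.25 CPM in Nkx2.2 cells, 1 to 10 reads per library, against 0.148 to 0.849 CPM in control cells. Its log2 change of -2.04 ± 0.59 (adjusted p = 0.0457, edgeR) was lost in 6 of the alternatives, each of which left out 1 library, with an adjusted p of up to 0.123. Between the factors, Lif was higher in Zfp488 cells, at 0.895 to 1.56 CPM, than in Nkx2.2 cells, by 3.29 ± 0.57 (adjusted p = 0.0016, edgeR). Without Nkx2.2 library 2, which holds most of its reads in that group, the Lif changes were -2.69 against control and 3.94 between the factors. The gene of cardiotrophin 1, Ctf1, was lower in Zfp488 cells, 0.975 to 1.62 CPM against 2.10 to 2.88 CPM in Nkx2.2 cells, with a log2 change of -0.91 ± 0.17 (adjusted p = 0.00278, edgeR). With library number as a block, 3 ligands rose with Zfp488 and none fell, where 14% of all genes rose and 10.2% fell. Blocked in the same way, 1 rose and 2 fell with Nkx2.2, where 12.6% of all genes rose and 13.5% fell.

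On CG4 differentiation 2 of 6 ligands rose and 1 fell, where 32.5% of all genes tested rose and 33.2% fell. Ctf1 rose by 1.94 ± 0.29 (adjusted p = 0.000526, edgeR). Clcf1, a ligand of CNTFR, rose by 2.55 ± 0.98 (adjusted p = 0.0468, edgeR), a call lost in 8 of the alternatives, with an adjusted p of up to 0.162; without proliferating library 3 the change was 5.31. Cntf, the gene of the ligand that the medium supplied, fell, at 2.36 to 3.13 CPM in differentiating control cells against 5.92 to 7.60 CPM in proliferating CG4 cells (-1.33 ± 0.23, adjusted p = 0.00112, edgeR).

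In primary cells 4 of the 6 ligands fell and 1, Ctf1, rose, where 43.3% of all genes tested fell and 41.5% rose. Lif was at 0.154 to 0.462 CPM in differentiating primary cells, against 20.6 to 21.4 CPM in proliferating ones, a log2 change of -5.91 ± 0.17 (adjusted p = 5.55e-11, edgeR). Clcf1 (-4.79 ± 0.40) and Il11 (-3.81 ± 0.29), a cytokine with its own receptor chain, fell as well. Differentiating primary libraries held few reads of each: 3 to 13 for Lif, 0 to 3 for Clcf1 and 1 to 6 for Il11. Without differentiating library 4 the change of Clcf1 was -5.39. Cntf was at 3.39 to 4.12 CPM in differentiating and 3.38 to 4.18 CPM in proliferating primary cells. The responses differed between CG4 and primary cells for 6 of 6 ligands, where 69.3% of all genes tested differed, with the CG4 response the higher for 5 and the lower for Cntf (-1.38 ± 0.22, adjusted p = 6.29e-05, edgeR). Of the 5, the call of Ctf1 (0.96, adjusted p = 0.0302, edgeR) was lost in 6 alternatives, which leaves 4.

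Of the other receptors of the family, Il6r and Il11ra1 had names. Il6r, the ligand-binding chain for interleukin 6, rose with Nkx2.2, to 6.44 to 10.7 CPM against 3.00 to 4.97 CPM in control cells, by 1.13 ± 0.22 (adjusted p = 0.00571, edgeR). Zfp488 cells had 4.66 to 8.02 CPM of Il6r, a change of 0.66 ± 0.22 that did not pass (adjusted p = 0.0794, edgeR). Over the alternatives 0 to 1 of these 2 receptors rose with Zfp488. On CG4 differentiation Il6r rose by 6.08 ± 0.75 (adjusted p = 0.000192, edgeR), against a proliferating level of 7 reads in 3 libraries, and the change was 7.97 without proliferating library 1 and 5.47 without library 3. In primary cells it fell, at 1.43 to 1.87 CPM in differentiating against 18.2 to 19.8 CPM in proliferating cells (-3.43 ± 0.09, adjusted p = 3.36e-11, edgeR), beside the fall in microglial markers given above. Il11ra1, the ligand-binding chain for interleukin 11, was nearly silent in CG4 cells, at 0.41 to 0.52 CPM in Zfp488, 0.164 to 0.475 CPM in Nkx2.2 and 0.054 to 0.468 CPM in control cells. It passed with neither factor (0.59 ± 0.46 and -0.20 ± 0.48, adjusted p = 0.463 and 0.835, edgeR). Against 0.0313 to 0.0971 CPM in proliferating CG4 cells, 1 to 4 reads per library, it rose on differentiation by 1.92 ± 0.74 (adjusted p = 0.0485, edgeR), a call lost in 5 of the alternatives. Primary cells had 6.66 to 10.2 CPM of Il11ra1 when differentiating and 2.62 to 3.33 CPM when proliferating, a rise of 1.55 ± 0.15 (adjusted p = 1.88e-06, edgeR). The responses did not differ past the threshold (0.41 ± 0.60, adjusted p = 0.562, edgeR), while differentiating control CG4 cells had less Il11ra1 than differentiating primary cells (-4.79 ± 0.38, adjusted p = 3.56e-08, edgeR).

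Of the 8 JAK kinases and other STATs with a name, 0 passed with Zfp488 and 1 with Nkx2.2, where 9.04% and 10.6% of all genes tested passed. That 1 was Stat5a, which signals from other cytokine receptors (0.62 ± 0.13, adjusted p = 0.0101, edgeR), a call lost in the fit of all 23 libraries (adjusted p = 0.103, edgeR). Over the alternatives 0 to 2 of the 8 rose with Zfp488 and 0 to 4 with Nkx2.2, and 0 fell with either. Over the same alternatives 0 to 2 were higher and 0 to 4 lower in Zfp488 cells than in Nkx2.2 cells. Between the factors Jak2, a kinase that binds gp130, was lower in Zfp488 cells by a log2 change of -0.65 ± 0.18 (adjusted p = 0.0179, edgeR), a call lost in 3 of the alternatives that left out a library, with an adjusted p of up to 0.0609. On CG4 differentiation 4 of 8 rose and 1 fell, where 32.5% of all genes tested rose and 33.2% fell. Jak3, the kinase of the common gamma chain, was at 15.5 to 26.3 CPM in differentiating control cells, against 0.282 to 1.27 CPM in proliferating CG4 cells (4.93 ± 0.50, adjusted p = 6.75e-05, edgeR), and the change was 5.66 without proliferating library 1. In primary cells 4 of 8 rose and 4 fell, where 84.8% of all genes tested passed, with changes of less than 1 on the log2 scale for each of the 8. The counts ran from 2 to 4 higher and from 3 to 4 lower over the alternatives. The fall of Jak3 was lost in 5 of them, and in the fit of all 23 libraries the rises of Tyk2 (adjusted p = 0.0535, edgeR) and Stat5a (adjusted p = 0.399, edgeR) were lost.

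The inhibitors of the pathway comprise other SOCS proteins, PIAS proteins and phosphatases. Of 15 with a name 0 passed with either factor against control, where 9.04% of all genes tested passed with Zfp488 and 10.6% with Nkx2.2. With library number as a block 3 rose with Zfp488 and 3 with Nkx2.2, where 14% and 12.6% of all genes rose. On CG4 differentiation 2 of 14 rose and 8 fell, where 32.5% of all genes tested rose and 33.2% fell. Over the alternatives 1 to 3 rose and 5 to 8 fell: the rise of Socs1 was lost in 2 of them, and the falls of Ptpn2 in 7, Ptpn6 in 5 and Socs6 and Ptpn11 in 1 each. Pias2, a SUMO ligase that restrains STATs, was at 11.1 to 13.1 CPM in differentiating control cells, against 48.8 to 85.6 CPM in proliferating CG4 cells (-2.38 ± 0.20, adjusted p = 2.19e-05, edgeR). Socs7 fell by 2.13 ± 0.20 (adjusted p = 5.06e-05, edgeR). In primary cells 5 of 14 rose and 8 fell, where 41.5% of all genes tested rose and 43.3% fell. Over the alternatives 3 to 5 rose and 8 to 9 fell. The rise of Pias3 was lost in 5 of them and that of Pias2 in the fit of all 23 libraries (adjusted p = 0.128, edgeR). Ptpn11, the gene of the phosphatase SHP2 that binds gp130 at the site SOCS3 uses, was at 1087 to 1370 CPM in differentiating primary cells, against 340.1 to 362.5 CPM in proliferating ones (1.85 ± 0.08, adjusted p = 1.04e-09, edgeR). Socs2, a feedback inhibitor of growth hormone signalling, fell by 2.84 ± 0.17 (adjusted p = 3.65e-08, edgeR). Ptpn6, the gene of SHP1 of blood cells and microglia, fell by 3.12 ± 0.07 (adjusted p = 9.8e-12, edgeR), beside the fall in microglial markers.

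Of 30 STAT3-linked response genes, known from various cell types, 24 had a name. With Zfp488 against control 6 of 24 rose and 1 fell, where 5.89% of all genes tested rose and 3.15% fell, with a median log2 change of 0.40 against -0.02 over all genes tested. Over the alternatives 4 to 14 rose and 0 to 1 fell: the fall of Myc was lost in 5 of them and the rises of Cebpb in 7 and Zfp36 in 8. Nfil3, a leucine zipper repressor, was at 50.9 to 78.2 CPM in Zfp488 cells, against 25.1 to 41.0 CPM in control cells (1.10 ± 0.16, adjusted p = 0.00322, edgeR). Ccl2, a chemokine, rose by 2.22 ± 0.33 (adjusted p = 0.00342, edgeR) at low levels, 0.767 to 1.04 CPM against 0.108 to 0.316 CPM in control cells. The survival gene Bcl2l1 rose by 0.47 ± 0.08 (adjusted p = 0.00749, edgeR). Blocked by library number the count was 14 of 24 higher and 1 lower, where 14% of all genes were higher and 10.2% lower. Markers of other cell types moved with Zfp488: Col1a1 and Col3a1 summed to 11.1 to 34.4 CPM in Zfp488 cells and 3.05 to 12.2 CPM in control cells, and 1 of the 2, Col3a1, rose. The 6 neuronal markers summed to 346 to 520 CPM in Zfp488 cells and 153 to 342 CPM in control cells, where 2 rose and 1 fell. None of these 8 was at 0 in every library of either group. Of 3 microglial markers 1 rose and 0 fell, with sums of 4.99 to 8.49 CPM in Zfp488 cells and 5.24 to 11 CPM in control cells. Of 6 astrocyte markers 1 rose and 1 fell, and of 5 Schwann cell markers 1 rose and 0 fell. The part of all these markers in the rise of Ccl2 and the other response genes was not tested.

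With Nkx2.2 against control 5 of 24 rose and 1 fell, where 6.1% of all genes tested rose and 4.48% fell, with a median of 0.04. Over the alternatives 4 to 7 rose and 0 to 4 fell, and blocked by library number 7 rose and 4 fell, where 12.6% of all genes rose and 13.5% fell. The rise of Vim (1.16, adjusted p = 0.0321, edgeR) was lost in 6 alternatives and the fall of Nfil3 (-0.57, adjusted p = 0.0398, edgeR) in 7. Lcn2, an iron-binding protein of reactive glia, was at 17.5 to 48.5 CPM in Nkx2.2 cells, against 0.180 to 0.394 CPM in control cells, a log2 change of 6.97 ± 0.39 (adjusted p = 1.37e-06, edgeR). Chi3l1, a chitinase-like protein of reactive astrocytes, was at 23.6 to 42.3 CPM in Nkx2.2 cells, against 0.268 to 0.891 CPM in control cells (5.77 ± 0.39, adjusted p = 3.83e-06, edgeR). The groups were far apart for both genes in every library. Of 6 astrocyte markers tested, Gfap among them, 0 passed with Nkx2.2, where 10.6% of all genes tested did. Gfap changed by -0.03 (adjusted p = 0.988, edgeR). The summed astrocyte markers overlapped, at 2010 to 3840 CPM in Nkx2.2 cells and 2310 to 3690 CPM in control cells. Lcn2 and Chi3l1 were at 0.184 to 0.469 CPM and 0.282 to 0.979 CPM in Zfp488 cells, lower than in Nkx2.2 cells by log2 changes of -6.97 ± 0.39 and -5.76 ± 0.40 (adjusted p = 1.68e-06 and 3.96e-06, edgeR). Bcl2l1 rose with Nkx2.2 too (0.50 ± 0.08, adjusted p = 0.00247, edgeR), against the same control libraries as with Zfp488. The leucine zipper gene Cebpb rose by 0.81 ± 0.12 (adjusted p = 0.0014, edgeR), a call lost in the fit of all 23 libraries (adjusted p = 0.0881).

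On CG4 differentiation 14 of 22 tested rose and 1, Klf6, fell, where 32.5% of all genes tested rose and 33.2% fell; the median log2 change was 1.61. Icam1 was at 25.6 to 41.6 CPM in differentiating control cells, against 3.91 to 4.20 CPM in proliferating CG4 cells (3.09 ± 0.21, adjusted p = 9.54e-06, edgeR). Gfap, at 235 to 2141 CPM, against 0.216, 0 and 0.315 CPM in proliferating CG4 cells, rose by 12.77 ± 1.28 (adjusted p = 6.23e-05, edgeR), a value that a handful of reads in the proliferating libraries sets and that was 13.4 without proliferating library 3. Gadd45g, a growth arrest gene, was at 21.8 to 51.3 CPM in differentiating control cells, against 1.44 to 4.08 CPM in proliferating CG4 cells (3.66 ± 0.44, adjusted p = 0.000175, edgeR). Sbno2, a corepressor that STAT3 induces, rose by 3.21 ± 0.43 (adjusted p = 0.000291, edgeR).

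In primary cells 4 of 23 rose and 13 fell, where 41.5% of all genes tested rose and 43.3% fell; the median log2 change was -1.08. Timp1 was at 3.04 to 3.73 CPM in differentiating primary cells, against 71.0 to 75.4 CPM in proliferating ones (-4.39 ± 0.06, adjusted p = 4.77e-13, edgeR). Myc, a growth regulator, fell by 2.18 ± 0.05 (adjusted p = 2.38e-11, edgeR). Gadd45g, at 3.43 to 7.58 CPM against 160 to 169 CPM in proliferating primary cells, fell by 4.87 ± 0.15 (adjusted p = 1.03e-10, edgeR). Gfap rose here as in CG4 cells, at 639.8 to 1521 CPM in differentiating primary cells against 4.05 to 4.62 CPM in proliferating ones (7.97 ± 0.37, adjusted p = 3.16e-09, edgeR). The summed astrocyte markers were at 1120 to 2120 CPM and 149 to 155 CPM, but Gfap is itself part of that sum.

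Of the 24 named genes of the list, 10 rose in CG4 cells and fell in primary cells, as did 10.4% of the 11675 genes tested in both: Myc, Cebpb, Timp1, Icam1, Il4r, Vegfa, Gadd45g, Sbno2, Zfp36 and Tnfrsf12a. Of these calls, that of Sbno2 in primary cells was lost in the fit of all 23 libraries (adjusted p = 0.235, edgeR), that of Myc in CG4 cells in 2 alternatives and that of Cebpb in CG4 cells in 6. A further 3 rose in both, Fos, Pim3 and Gfap. The test of the difference called 16 of 23 with the higher CG4 response and 2 with the lower, where 33.8% of all genes tested had the higher CG4 response and 35.4% the lower. Icam1 differed by 6.58 ± 0.27 (adjusted p = 5.47e-11, edgeR) and Gadd45g by 8.59 ± 0.50 (adjusted p = 1.76e-09, edgeR). The lists were written with earlier results of these data known, so these counts describe the lists and support no direction.

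**Figure D4:**
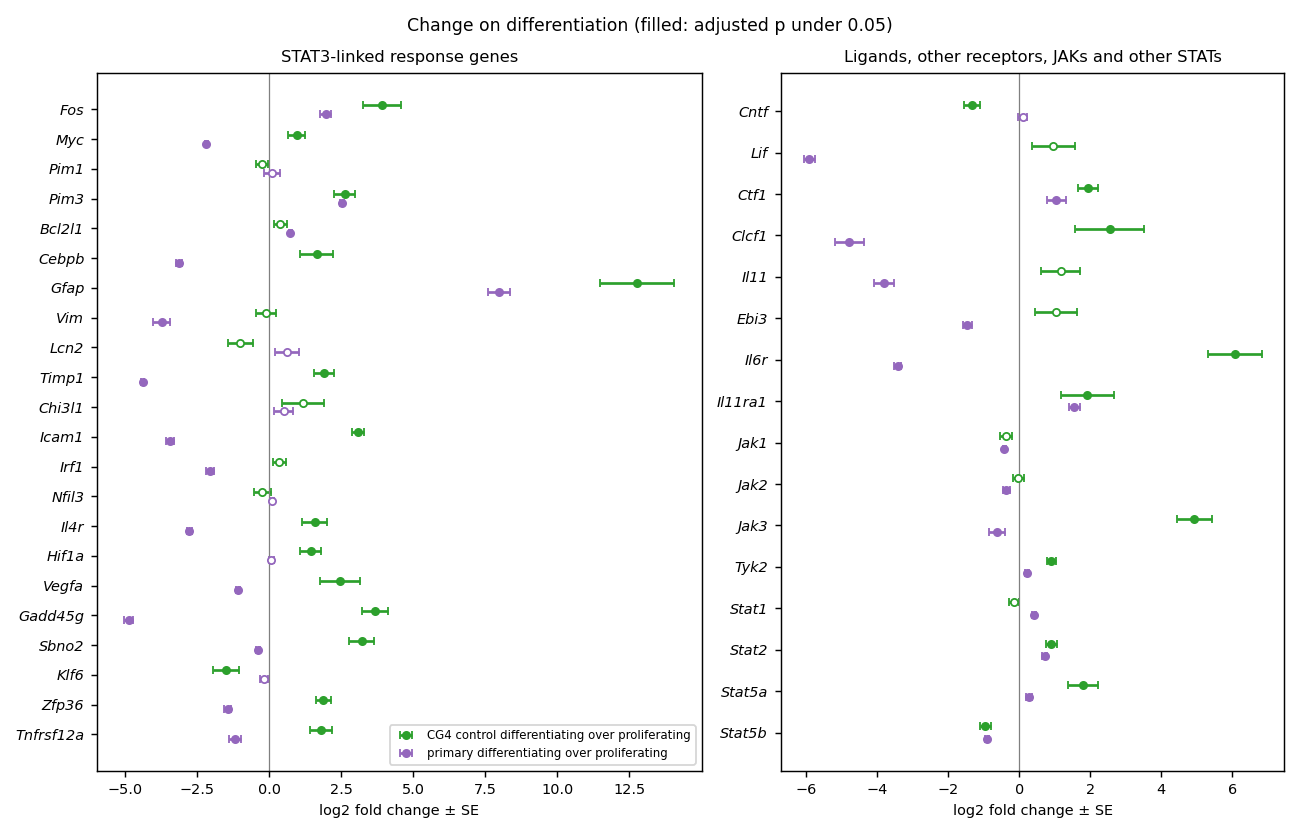
Log2 fold change with its standard error (x axis) on differentiation of CG4 cells (green) and primary cells (purple) for the genes of the lists tested in both (y axis); filled points passed an adjusted p of 0.05. In the left panel most green points lie above 0 and most purple points below it, and Gfap is far above 0 in both. On the right Lif, Clcf1, Il11, Ebi3, Il6r and Jak3 show the same split of signs. The green points of Lif, Il11 and Ebi3 did not pass.

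Across the 23 libraries, the genes whose log2 CPM followed each member most closely were sought among 10029 named genes that averaged 5 CPM or more. For Cntfr they were Mfsd10, Cpne7 and Sat2 (Pearson's r of 0.938, 0.936 and 0.929). Lifr had Phkb, Ganc and Luzp2 (0.936, 0.924 and 0.913). The closest to Il6st were Ank2, Washc5 and Atp6v1c1 (0.902, 0.892 and 0.883). Stat3 had Ppp1r16a, an unnamed locus and Ahdc1 (0.895, 0.886 and 0.877). For Bcl3 they were Cys1, Fuca1 and Cacnb1 (0.977, 0.976 and 0.973). These values describe 23 libraries of 6 groups that share medium, vector and experiment within a group.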

How the data were processed

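Total RNA of 23 libraries was sequenced, and the authors deposited counts per gene. Trimmomatic 0.36, STAR 2.5.2b, Subread 1.5.2 with featureCounts and the build rn6 stand in the submitters' processing notes, without their settings. Strand, treatment of multimapping reads and annotation release were not stated in any source used. The authors' tables for Zfp488 and Nkx2.2 against control also hold, per the file headers, log2 fold changes, p-values and a scaled signal per library, which is a constant multiple of the counts in 16 of 16 columns. Only the log2 changes and adjusted p-values of members were copied from these deposited tables.

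Gene names came from those tables, which name 14690 identifiers, 12432 of them listed in every file. The deposited counts were tested with edgeR 4.0.16 (R 4.3.3): TMM scaling, its filter on low counts, the quasi-likelihood test and Benjamini-Hochberg adjustment over all genes tested, with a threshold of 0.05. One fit held the 12 differentiating CG4 libraries, 1 the control and proliferating CG4 libraries, 1 the 8 primary libraries, and 1 the 15 control, proliferating CG4 and primary libraries for the difference of responses and for levels between cell origins. The SE is the log2 change divided by the root of F. Levels are CPM over the genes listed in every file. The titles call the libraries biological replicates. Numbers paired the differentiating CG4 libraries, since same-numbered libraries deviated together (correlations of 0.143 to 0.69 in every pair of groups). The pairing is not sharp: between control and Nkx2.2 cells unlike-numbered libraries ran from -0.631 to 0.386. Control library 4 had 0.291 with Nkx2.2 library 3 and 0.143 with Nkx2.2 library 4. Numbers did not pair the libraries of the other groups. The comparisons with control share the control libraries. The scripts were tested on simulated data. Alternatives were RLE size factors, no filter, DESeq2 1.42.0, thinned counts, the replicate block, fits of other sets of libraries and the omission of 1 library at a time.

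Members and lists were chosen with earlier results of these data known, and 1 gene of the lists is not reported here. From each list and comparison the rule names up to 4 genes with the smallest adjusted p below the threshold, ligands at any p, and for likeness the 3 genes with the highest correlation of log2 CPM (prior count 2); other genes were named after their values were seen. Counting error at 20063345 reads and above is small for all members but Bcl3 outside the differentiating CG4 cells.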

Additional observations from a re-analysis of the deposited data

Results flagged for a closer look

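The response to differentiation differed between CG4 and primary cells for 29 of the members and genes named from the lists, by a test of the difference itself (edgeR's quasi-likelihood test, adjusted over all genes tested). Of all genes tested 69.3% passed the same test, and some of the genes were named after their values were seen. The count of 29 thus says little about the set. Values are the CG4 log2 response minus the primary one. Among members it was 1.83 for Cntfr, -2.41 for Lifr, -1.92 for Il6st, 1.17 for Stat3 and 8.66 for Bcl3. Among ligands it was -1.38 for Cntf, 6.95 for Lif, 7.36 for Clcf1, 0.96 for Ctf1, 5.01 for Il11 and 2.54 for Ebi3. The receptor Il6r differed by 9.53, the kinase Jak3 by 5.61 and Stat5a by 1.55. Among inhibitors the difference was -2.64 for Pias2, -1.60 for Socs7, 1.67 for Ptpn6, -2.16 for Ptpn11 and 3.56 for Socs2. Among STAT3-linked genes it was 6.58 for Icam1, 4.82 for Gfap, 8.59 for Gadd45g, 3.65 for Sbno2, 6.33 for Timp1, 3.17 for Myc, 4.80 for Ccl2, -1.54 for Lcn2, 4.83 for Cebpb and -1.26 for Klf6. The calls of Ctf1 (6 alternatives), Lcn2 (13) and Klf6 (5) were lost under some alternatives. Without proliferating CG4 library 1 the difference was 11.39 for Il6r, 6.33 for Jak3, 2.32 for Stat5a, 4.21 for Socs2, 2.31 for Ptpn6, 5.49 for Cebpb, 5.39 for Ccl2 and 10.48 for Bcl3. Without proliferating CG4 library 3 it was 10.08 for Clcf1, 3.20 for Ebi3, 8.92 for Il6r and 5.44 for Gfap. Without primary differentiating library 4 it was 8 for Clcf1. Summed microglial markers were 5.24 to 11 CPM in differentiating control CG4 cells and 4.61 to 6.51 CPM in proliferating CG4 cells, against 18.8 to 24.9 CPM in differentiating and 451 to 469 CPM in proliferating primary cells; their part in these differences was not tested.

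In 8 of 173 groups of 4 libraries 1 library lay apart from the other 3, by the gap to the nearest as a share of the group's range; chance alone gives about 1 in 20. None was of a member. In Nkx2.2 cells the share was 0.941 for Icam1 (library 3, 28.05 CPM against at least 55.9 CPM in the others), 0.885 for Il11, 0.878 for Il11ra1 and 0.851 for Nfil3. It was 0.835 for Lcn2 in Zfp488 cells and 0.836 for Socs2 in control cells (library 3, 42.3 CPM against at least 87.9 CPM in the others). In proliferating primary cells it was 0.889 for Il11 and 0.864 for Stat5a.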

How the results depend on the processing

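Of 685 values of members under the alternatives, 651 kept their direction and side of the threshold, 6 lost a call, 7 gained one and 21 changed sign; none of the 21 was of a called value. Library numbers pair the differentiating CG4 libraries, and with the replicate block the genes called were 3576 with Zfp488 and 3876 with Nkx2.2 against control and 6276 between the factors, and the members called were 1, 1 and 3. The block changed no other call of a member. In the other fits numbers did not pair the libraries. DESeq2 called 2144 genes with Zfp488, and the fit of only the groups compared called 1 member there. Leaving out 1 library at a time gave 458 (without Zfp488 library 4) to 1509 genes with Zfp488, 924 (without Nkx2.2 library 4) to 2302 with Nkx2.2, and 0 to 1 members between the factors. Sign changes of uncalled log2 values were Lifr with Nkx2.2 (0.25) and Socs3 between the factors (-0.0093) with the libraries numbered 3 left out, Socs3 between the factors on thinned counts (-0.0057), and Lifr in differentiating CG4 against primary cells with the block (0.029). Over left-out libraries, with Zfp488 Il6st ran from -0.030 to 0.34 and Stat3 from -0.090 to 0.20. With Nkx2.2 Cntfr ran from -0.065 to 0.36, Lifr from -0.22 to 0.093 and Bcl3 from -0.34 to 0.064. Between the factors Il6st ran from -0.36 to 0.036 and Socs3 from -0.25 to 0.27. Lifr ran from -0.30 to 0.011 in differentiating CG4 against primary cells, and Cntfr from -0.32 to 0.13 in proliferating ones. Socs3 has no value in the fit of all 23 libraries. Depth limits genes for which a group holds few reads, among them Bcl3, Il6r, Clcf1, Lif and Il11.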
